A study of Mus musculus with 24 samples.

Results

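The 9 genes described here, *Hif3a*, *Fkbp5*, *Tsc22d3*, *Per1*, *Zbtb16*, *Sgk1*, *Klf9*, *Mt1* and *Mt2*, are genes that glucocorticoids induce in many tissues. They were taken by symbol from the 2 expression tables of a study of Xinβ, a protein of the cardiac intercalated disc encoded by *Xirp2*, and all 9 were listed among the 15667 genes of uninjected hearts and the 15327 genes of injected hearts. The list was chosen by known hormone responses with the high CPM of *Hif3a* in knockout hearts, uninjected ones above all, in view, so the values of uninjected hearts are a description, in which fold changes and the number of genes past the limma threshold are printed and nothing is drawn from them. Earlier results of all groups were known when this list and those of other genes were made, so counts over a list are not independent evidence of its direction. All hearts came from mice at postnatal day 7.5, and the groups held both sexes. *Xinβ* knockout mice (KO) carry a germline deletion in which parts of exon 6, intron 6 and exon 7 are replaced by a LacZ-Neo cassette, made in R1 embryonic stem cells and kept on a C57BL6 background. Control mice were WT littermates. A total of 8 hearts were not injected, 4 KO and 4 WT, and 16 came from pups given AAV9 under the skin at postnatal day 1, with 4 hearts in each of the groups WT/GFP, KO/GFP, WT/YAP S127A and KO/YAP S127A. GFP served as the control cargo. YAP S127A, written aYAP in the plots, is a Flag-tagged human YAP in which the serine that Hippo kinases phosphorylate is replaced, so that the protein stays active. The chicken cardiac TNT promoter, which is active in cardiomyocytes, drove both cargoes, so other cells of the heart were not meant to carry them. The labels call the tissue heart apex and the methods of the study cardiac ventricles. Neither a hormone treatment nor a hormone level is described for these mice.

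Glucocorticoids, corticosterone in the mouse, cross the cell membrane and bind the glucocorticoid receptor, which is encoded by *Nr3c1* and held in the cytoplasm by chaperones. The bound receptor moves to the nucleus, where it binds glucocorticoid response elements and raises the transcription of nearby genes. In the heart the receptor is present in cardiomyocytes and in other cells, and late fetal and early postnatal hormone supports cardiac maturation. *Fkbp5* encodes a co-chaperone that lowers the affinity of the receptor for its hormone, *Tsc22d3* encodes GILZ, an anti-inflammatory leucine zipper protein, and *Sgk1* encodes a kinase that regulates ion transport. *Hif3a*, *Zbtb16*, *Klf9* and *Per1* encode transcriptional regulators. HIF3α belongs to the hypoxia-inducible factor family, PLZF, the product of *Zbtb16*, is a zinc finger repressor, KLF9 is a Krüppel-like factor, and PER1 is a repressor of the circadian clock. *Mt1* and *Mt2* encode metallothioneins, small cysteine-rich proteins that bind zinc and copper and are induced by metals as well as by glucocorticoids.

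Expression was read as CPM, a gene's count over the library size, which the authors had scaled. The recovered reads on genes numbered between 20490875 and 31154155 in uninjected libraries and between 15015038 and 19444404 in injected libraries. *Xirp2* was at 0 to 0.972 CPM in the 12 knockout libraries and at 56.0 to 168 CPM in the 12 WT libraries, as the labels require. The ventricular markers *Myl2* and *Myl3* summed to between 7792 and 19132 CPM and the atrial markers *Myl7* and *Sln* to between 0.217 and 72.5 CPM, with *Sln* not listed for injected hearts. Along the second principal component of its table, KO/GFP replicate 2 and uninjected KO replicate 1 stood apart from the other libraries. For the 9 genes, calls that changed when they were left out are named. In such bulk samples, fewer cells of a type and less RNA per cell cannot be told apart.

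Promoter sequence is shown for 4 members because it holds the motifs through which the hormone, metals and the clock are known to act on genes. The windows cover 250 bases before to 50 bases after an annotated transcription start (RefSeq, GRCm38.p6) and are printed 5′ to 3′ on the strand of the gene, with the motif in capitals. A glucocorticoid response element was searched as AGAACA and TGTTCT with any 3 bases between them, which reads the same on both strands. It was found in 3 of 32851 windows of all genes, 0.00913%, and in 1 of the 16 windows that matched 8 of the 9 members. *Zbtb16* had no window. That window belongs to *Sgk1*, at chr10:21993640-21993939 on the plus strand, with the element 189 bases before the start.
Sgk1: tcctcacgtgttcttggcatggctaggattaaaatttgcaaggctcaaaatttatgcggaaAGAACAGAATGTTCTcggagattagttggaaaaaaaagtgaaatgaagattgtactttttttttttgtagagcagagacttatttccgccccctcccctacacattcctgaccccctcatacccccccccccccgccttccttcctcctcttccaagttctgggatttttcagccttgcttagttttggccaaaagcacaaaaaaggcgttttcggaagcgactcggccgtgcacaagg
Metal response elements, TGCGCNC or TGCACNC on either strand, were in 25.7% of all windows. *Mt2* at chr8:94172368-94172667 and *Mt1* at chr8:94178839-94179138, both on the plus strand, held 4 and 3 of them, and *Hif3a*, *Per1* and *Sgk1* each had a window with 1.
Mt2: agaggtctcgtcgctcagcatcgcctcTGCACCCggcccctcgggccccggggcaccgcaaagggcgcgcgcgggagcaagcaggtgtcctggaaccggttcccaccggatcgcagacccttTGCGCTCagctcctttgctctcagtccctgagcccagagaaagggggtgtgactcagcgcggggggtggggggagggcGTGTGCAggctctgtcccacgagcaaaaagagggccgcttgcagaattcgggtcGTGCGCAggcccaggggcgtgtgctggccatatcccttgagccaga
Mt1: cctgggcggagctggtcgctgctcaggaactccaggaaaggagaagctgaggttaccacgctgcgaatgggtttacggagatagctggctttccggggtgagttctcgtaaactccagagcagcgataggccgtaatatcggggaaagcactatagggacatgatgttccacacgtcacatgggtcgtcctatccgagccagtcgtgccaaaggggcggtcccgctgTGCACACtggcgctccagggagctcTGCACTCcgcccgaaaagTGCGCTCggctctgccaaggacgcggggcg
The E-box of clock proteins, CACGTG, which reads the same on both strands, was in 7.15% of all windows and in windows of *Fkbp5*, *Per1* and *Sgk1*. In the *Per1* window at chr11:69098699-69098998 on the plus strand it lay 166 bases before the start.
Per1: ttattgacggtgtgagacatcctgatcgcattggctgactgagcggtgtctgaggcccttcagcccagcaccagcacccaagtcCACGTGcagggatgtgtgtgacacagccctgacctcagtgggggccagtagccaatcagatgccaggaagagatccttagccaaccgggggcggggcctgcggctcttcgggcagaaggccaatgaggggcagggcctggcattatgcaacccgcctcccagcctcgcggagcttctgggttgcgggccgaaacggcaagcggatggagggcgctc
One arm of the glucocorticoid element alone, AGAACA or TGTTCT, was in 19.0% of all windows and in windows of *Sgk1* and *Tsc22d3*. It overlaps the full element by definition. These matches describe the letters of short windows, and response elements far from the start are outside them. Only the exact letters were searched, so elements that differ from them at any base were not counted.

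*Hif3a* had the largest change of the 9 genes (ENSMUSG00000004328, chromosome 7 from 17031507 to 17062427 of GRCm38, minus strand). WT/GFP replicates 1 to 4 had 1.79, 0.781, 2.45 and 2.14 CPM, and KO/GFP replicates 1 to 4 had 52.9, 12.3, 5.91 and 72.2 CPM. With YAP S127A, KO hearts had 1.69, 1.29, 1.09 and 1.37 CPM and WT hearts 2.15, 0.663, 1.72 and 2.03 CPM. Every KO/GFP heart lay above every other injected heart, and within that group replicates 1 and 4 were several times higher than replicates 2 and 3. The mean in KO/GFP hearts, 35.8 ± 32.0 CPM (SD, n = 4), stood against 1.79 ± 0.723 CPM in WT/GFP hearts (log2 fold change of CPM + 1 3.18, SE 0.53). This difference is a description, as the gene was listed for its rise in the knockout. Between KO/GFP and KO/YAP S127A hearts the log2 fold change was -3.38 (SE 0.53). This too is a description, since the choice of the gene for its knockout rise favoured a fall. The added 1 CPM shrinks these values for a gene this low, and without it DESeq2 on the recovered reads gave 4.33 and -4.73. In limma the 2 log2 fold changes were 3.47 and -3.68 without KO/GFP replicate 2. With any 1 library left out they ran from 2.65 and -2.86 without KO/GFP replicate 4 to 3.79 and -3.99 without replicate 3. Uninjected hearts, normalized separately, showed 17.1, 49.1, 55.7 and 19.5 CPM in KO and 1.81, 3.16, 1.38 and 2.72 CPM in WT replicates. The reads of *4833404L02Rik* on the opposite strand overlap *Hif3a*, and the libraries were made strand-specific.

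*Zbtb16* (ENSMUSG00000066687, chromosome 9 from 48654297 to 48836222, minus strand) varied widely between hearts of one group, uninjected WT hearts aside. In WT/GFP hearts it was at 16.4, 13.7, 7.99 and 3.01 CPM and in KO/GFP hearts at 98.3, 20.01, 134 and 85.8 CPM. The lowest knockout heart, replicate 2, was slightly above the highest WT/GFP heart, and the other 3 were far above both. The log2 fold change was 2.84 (SE 0.65, adjusted p = 0.0085, limma) and 3.42 without replicate 2. KO/YAP S127A hearts were at 29.9, 19.9, 3.83 and 7.89 CPM, of which replicate 1 lay above KO/GFP replicate 2, so these groups overlapped. Their difference was -2.44 on the log2 scale (SE 0.65, adjusted p = 0.019, limma), and the adjusted p was between 0.052 and 0.062 when KO/GFP replicate 1 or KO/YAP S127A replicate 3 or 4 was left out. WT/YAP S127A hearts were at 3.29, 5.73, 8.87 and 17.3 CPM. Uninjected WT hearts lay close together, at 6.77, 7.12, 6.85 and 7.62 CPM, whereas uninjected KO hearts were at 8.65, 96.2, 81.9 and 115 CPM. Here replicate 1 was close to WT and the other 3 hearts were far above it, and the log2 fold change of 2.76 was 3.60 without replicate 1.

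*Klf9* (ENSMUSG00000033863, chromosome 19 from 23141226 to 23168134, plus strand) rose less but more evenly. It had 34.8, 35.7, 60.5 and 49.9 CPM in WT/GFP, 106, 81.1, 85.6 and 113 CPM in KO/GFP and 57.1, 50.8, 55.3 and 80.8 CPM in KO/YAP S127A hearts. All 4 KO/GFP hearts were above both other groups, although KO/YAP S127A replicate 4 was almost level with the lowest of them. The log2 fold change was 1.10 in KO/GFP against WT/GFP hearts (SE 0.19, adjusted p = 0.0013, limma) and -0.66 in KO/YAP S127A against KO/GFP hearts (SE 0.19, adjusted p = 0.026, limma). The second difference passed 0.05 or not depending on single hearts, with adjusted p between 0.063 and 0.079 when KO/GFP replicate 1 or 4 or KO/YAP S127A replicate 1, 2 or 3 was left out. Uninjected KO hearts were at 52.5, 107, 119 and 74.9 CPM and uninjected WT hearts at 37.5, 42.6, 42.2 and 40.1 CPM.

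*Per1* (ENSMUSG00000020893, chromosome 11 from 69095217 to 69109960, plus strand) was the member with the least separation in injected hearts. The WT/GFP values of 19.4, 14.8, 87.7 and 57.4 CPM spread over a 5.94-fold range, and KO/GFP hearts were at 123, 66.6, 140.5 and 87.9 CPM. Replicate 2 of the knockout was below WT/GFP replicate 3, so the groups overlapped. The log2 fold change of 1.5 (SE 0.45, adjusted p = 0.036, limma) passed the threshold, but edgeR on the recovered reads gave an adjusted p of 0.092 and DESeq2 one of 0.083. Leaving out KO/GFP replicate 1, 3 or 4 or WT/GFP replicate 1 or 2 also ended the call, with adjusted p between 0.064 and 0.12. KO/YAP S127A hearts were at 75.1, 73.1, 65.2 and 138 CPM and WT/YAP S127A hearts at 53.3, 132, 72.2 and 86.9 CPM, both overlapping KO/GFP hearts. The difference between KO/YAP S127A and KO/GFP hearts was -0.26 on the log2 scale, with a 95% confidence interval from -1.21 to 0.70 (adjusted p = 0.75, limma). Uninjected hearts were more uniform, at 118, 92.0, 107 and 104 CPM in KO and 28.6, 33.4, 45.2 and 26.1 CPM in WT hearts, and did not overlap.

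**Figure D1:**
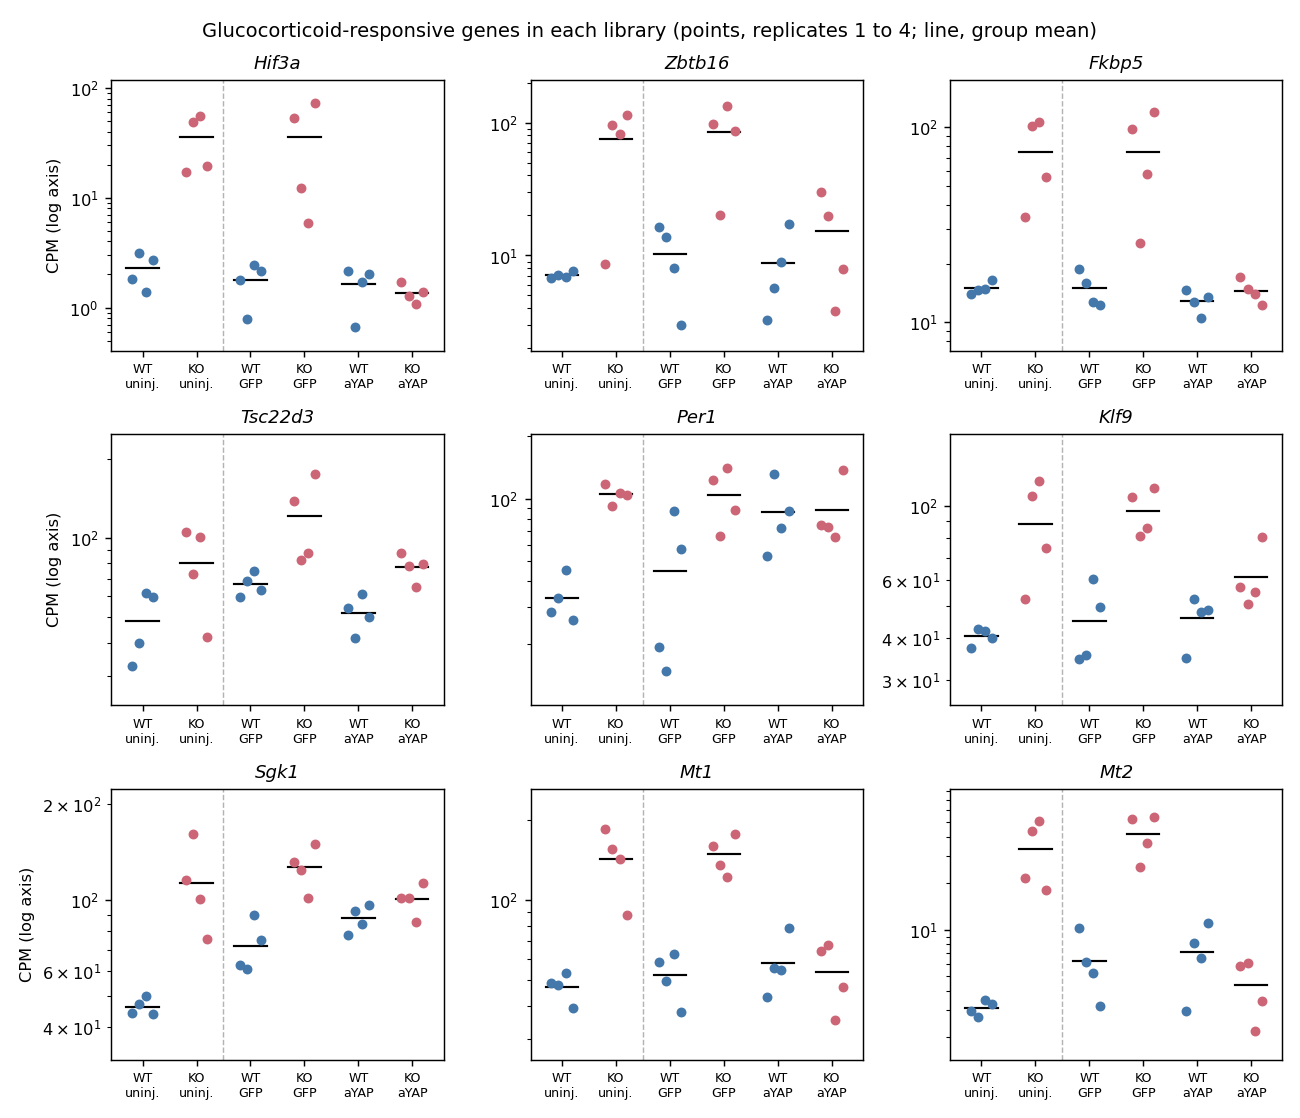
CPM of each of the 9 genes in every library on a log axis, with 1 point for each of the 4 hearts of a group, blue for WT and red for KO, and a line at the group mean. The dashed line separates the uninjected from the injected table, which were normalized separately, and aYAP stands for YAP S127A. The KO/GFP hearts sat above the other injected hearts for *Hif3a*, *Fkbp5*, *Mt1*, *Mt2* and, narrowly, *Klf9*, while *Per1* groups overlapped.

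Among the genes of receptor feedback and signalling, *Fkbp5* (ENSMUSG00000024222, chromosome 17 from 28399094 to 28517527, minus strand) changed most. WT/GFP hearts had 18.8, 15.8, 12.7 and 12.3 CPM, and KO/GFP hearts had 97.9, 25.4, 57.3 and 119.7 CPM. Values fell to 17.1, 14.7, 13.9 and 12.2 CPM in KO/YAP S127A hearts. The order of the KO/GFP hearts differed from that of *Hif3a* in replicates 2 and 3, and no heart of the other injected groups reached the lowest of them. The mean of 75.1 ± 42 CPM (SD, n = 4) was 5.04 times that of WT/GFP hearts (log2 fold change 2.06, SE 0.33, adjusted p = 8.0e-04, limma). It was also 5.19 times that of KO/YAP S127A hearts, whose log2 fold change against KO/GFP hearts was -2.09 (SE 0.33, adjusted p = 6.4e-04, limma). Without KO/GFP replicate 2 the log2 fold changes were 2.50 and -2.53. Uninjected hearts were at 34.6, 102, 107 and 55.7 CPM in KO and 13.9, 14.7, 14.9 and 16.5 CPM in WT.

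*Tsc22d3* (ENSMUSG00000031431, chromosome X from 140539528 to 140600659, minus strand) was expressed in all groups and rose modestly. WT/GFP hearts were at 59.9, 68.4, 74.8 and 63.4 CPM and KO/GFP hearts at 139, 82.2, 87.4 and 175 CPM. Replicates 1 and 4 were again the highest, and the groups did not overlap. The log2 fold change was 0.78 (SE 0.19, adjusted p = 0.013, limma), but without KO/GFP replicate 1 the adjusted p of 0.0501 did not pass. KO/YAP S127A hearts were at 87.7, 78.5, 65.2 and 79.4 CPM, overlapping KO/GFP hearts, with a log2 fold change of -0.57 (SE 0.19, 95% confidence interval -0.98 to -0.16, adjusted p = 0.059, limma). That comparison passed the threshold without KO/GFP replicate 2 (-0.73, adjusted p = 0.014, limma) or replicate 3 (adjusted p = 0.025, limma), under quantile normalization (adjusted p = 0.049), in edgeR (0.038) and in DESeq2 (0.016). WT/YAP S127A hearts were at 54.1, 41.6, 61.1 and 50.0 CPM, all below the KO/YAP S127A hearts. In uninjected hearts *Tsc22d3* was at 105, 72.9, 101 and 42 CPM in KO and 32.7, 39.9, 61.9 and 59.5 CPM in WT, where knockout replicate 4 was within the WT range.

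*Sgk1* (ENSMUSG00000019970, chromosome 10 from 21882184 to 21999903, plus strand), whose window above holds the full response element, had 62.4, 60.9, 89.8 and 75.1 CPM in WT/GFP and 132, 124, 102 and 150.4 CPM in KO/GFP hearts. The groups did not overlap, and the log2 fold change was 0.81 (SE 0.14, adjusted p = 0.0011, limma). KO/YAP S127A hearts were at 102, 102, 85.5 and 113 CPM and WT/YAP S127A hearts at 77.6, 92.3, 84.2 and 96.3 CPM, between the 2 GFP groups by their means. The step from KO/GFP to KO/YAP S127A was -0.33 on the log2 scale (SE 0.14, 95% confidence interval -0.62 to -0.04, adjusted p = 0.12, limma), and passed the threshold without KO/GFP replicate 3 (adjusted p = 0.041). Uninjected KO hearts were at 116, 161, 101 and 75.8 CPM against 44.1, 47.1, 50.1 and 43.8 CPM in WT hearts.

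Both metallothionein genes were higher in KO/GFP hearts than in every other injected heart. *Mt2* (ENSMUSG00000031762, chromosome 8 from 94172664 to 94173568, plus strand) was at 10.3, 6.19, 5.22 and 3.18 CPM in WT/GFP, at 52.0, 25.5, 36.4 and 54.0 CPM in KO/GFP and at 5.81, 6.08, 2.17 and 3.43 CPM in KO/YAP S127A hearts. Its log2 fold change was 2.61 in KO/GFP against WT/GFP hearts (SE 0.36, adjusted p = 3.0e-04, limma) and -3.02 in KO/YAP S127A against KO/GFP hearts (SE 0.36, adjusted p = 7.9e-05, limma). *Mt1* (ENSMUSG00000031765, chromosome 8 from 94179082 to 94180327, plus strand), the neighbouring gene, was at 58.5, 49.6, 62.8 and 38.0 CPM in WT/GFP, at 159.9, 136, 122 and 177 CPM in KO/GFP and at 64.4, 67.6, 35.5 and 47.0 CPM in KO/YAP S127A hearts. Its log2 fold changes were 1.5 (SE 0.21, adjusted p = 3.5e-04, limma) and -1.48 (SE 0.21, adjusted p = 3.2e-04, limma). WT/YAP S127A hearts were at 2.96 to 11.1 CPM for *Mt2* and 43.3 to 78.3 CPM for *Mt1*, within or near the WT/GFP ranges. Uninjected KO hearts were at 21.8, 43.5, 50.8 and 18.1 CPM for *Mt2*, against 2.71 to 3.5 CPM in WT. For *Mt1* they were at 185, 155, 142 and 87.5 CPM, against 39.4 to 53.1 CPM in WT.

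The ratio of the 2 metallothionein genes was taken up after the values were seen and is given as a description. *Mt2* reached 8.31 to 17.6 reads per 100 reads of *Mt1* in WT/GFP hearts and 18.8 to 32.5 in KO/GFP hearts, a difference of 1.3 in the log2 ratio. KO/YAP S127A hearts were at 6.12 to 9.01, a difference of -1.82 from KO/GFP hearts on the same scale. In each of these comparisons the groups did not overlap. KO/YAP S127A and WT/GFP hearts differed by -0.52 and WT/YAP S127A and WT/GFP hearts by 0.04, and both pairs overlapped. Uninjected hearts were at 11.8 to 35.8 in KO and 5.66 to 8.37 in WT. The longest run of bases shared by annotated transcripts of both genes was 20, shorter than the reads of 50 and 150 bp. Their promoter windows, printed above, held different numbers of metal response elements, and neither held the full glucocorticoid element.

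Taking the 9 genes as a list, all 9, *Hif3a* by its choice among them, were called higher in KO/GFP than in WT/GFP hearts, where 6.43% of the 14597 genes tested were called higher and 7.22% lower. For 8 of the 9 the groups did not overlap in that direction, against 7.32% of all genes. The median log2 fold change was 1.5 for the 9 genes and -0.01 for all genes. All 9 passed the filter, above 1 CPM in 8 or more of the 16 libraries, and libraries of every group counted towards it. By size *Zbtb16* ranked 5, *Mt2* 9 and *Fkbp5* 21 among the increases of all genes. The count was 8 with edgeR, 8 with DESeq2 and 9 without KO/GFP replicate 2, when the log2 fold changes ran from 0.82 for *Sgk1* to 3.47 for *Hif3a*. In uninjected hearts, where the contrast was in view when the genes were listed, the limma count was 8 of the 9 beside 3.23% of 15598 genes, and 8 did not overlap beside 8.01%, which describes the choice and supports nothing. That count was 6 to 8 with 1 library left out, *Zbtb16* dropping out in 7 of the 8 omissions and *Klf9* in 6, and 8 without uninjected KO replicate 1. The median there was 1.65 and the log2 fold changes ran from 0.68 for *Tsc22d3*, the one not called, to 3.33 for *Hif3a*.

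With YAP S127A in KO hearts, 6 of the 9 genes were called lower than in KO/GFP hearts, *Hif3a*, *Mt2*, *Zbtb16*, *Fkbp5*, *Mt1* and *Klf9*, where 6.92% of all genes tested were called lower and 7.85% higher. Of these, 5 had groups that did not overlap, against 8.52% of all genes in that direction. The median log2 fold change was -1.48 for the 9 genes and 0.01 for all genes. *Tsc22d3*, *Sgk1* and *Per1* did not pass, although without KO/GFP replicate 2 *Tsc22d3* did, making 7. This comparison shares the KO/GFP libraries with the one above, so a heart that was high for a gene adds to both differences. *Hif3a* is in the count and the median, although its choice for a knockout rise favoured its fall.

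**Figure D2:**
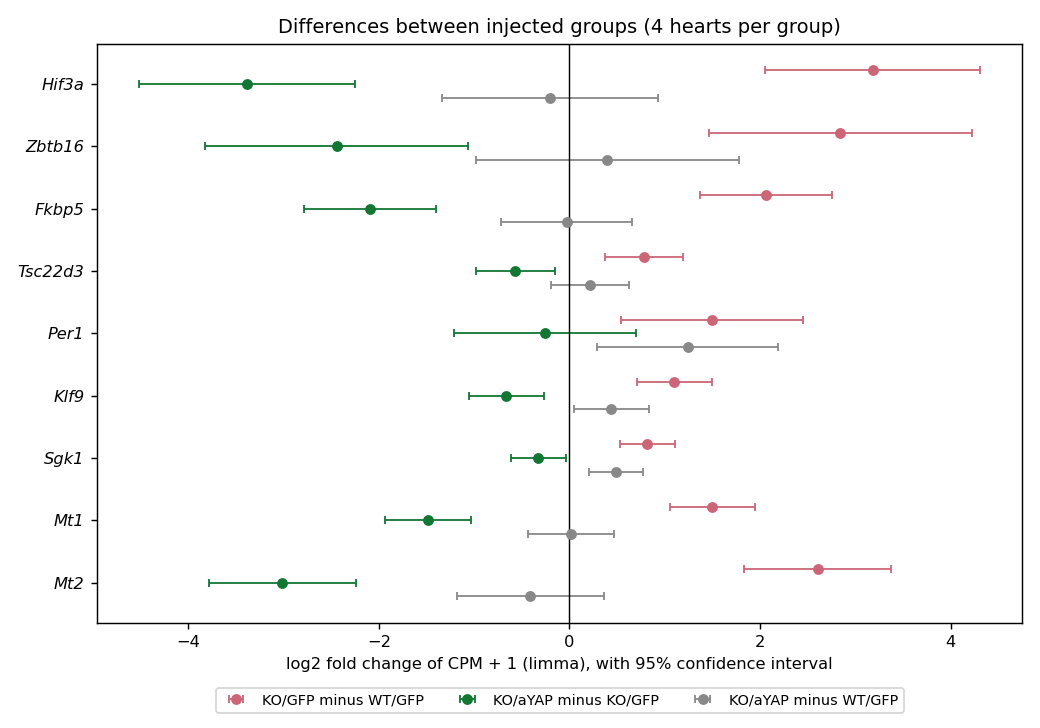
Log2 fold changes of the 9 genes in injected hearts with 95% confidence intervals (limma on log2 of CPM + 1, 4 hearts per group). Red shows KO/GFP minus WT/GFP, green KO/YAP S127A (aYAP) minus KO/GFP, and grey KO/YAP S127A minus WT/GFP. Red intervals lie above 0 for all 9 genes, green intervals span 0 for *Per1*, and grey intervals span 0 for all but *Per1*, *Klf9* and *Sgk1*.

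With YAP S127A, none of the 9 genes was called different between KO and WT/GFP hearts in limma, where 0.0206% of all genes (3) were called. At an unadjusted p under 0.05 there were 3, beside 888 of the 14597 genes, *Per1* with a log2 difference of 1.24 (95% confidence interval 0.29 to 2.19), *Sgk1* with 0.49 (0.20 to 0.77) and *Klf9* with 0.44 (0.04 to 0.84). The other 6 had intervals that held 0, from -1.34 to 0.93 for *Hif3a*, -0.98 to 1.78 for *Zbtb16* and -1.18 to 0.36 for *Mt2* to -0.43 to 0.47 for *Mt1*. A residual difference of the size of these limits was not resolved with 4 hearts per group. Against WT/YAP S127A hearts, limma called 0 of the 9 and 0.0411% of all genes. *Tsc22d3* alone of the 9 had an unadjusted p under 0.05 there, beside 1627 of the 14597 genes, with 0.58 (SE 0.19, adjusted p = 0.3, limma).

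In WT hearts YAP S127A had no detected effect on the list. Limma called 0 of the 9 and 0.0% of the 14597 genes, 1011 of which had an unadjusted p under 0.05. *Per1*, at 1.2 (SE 0.45, adjusted p = 0.7, limma), and *Sgk1*, at 0.29 (SE 0.14, adjusted p = 0.72, limma), were the 2 members with an unadjusted p under 0.05. For *Per1* the WT/GFP hearts themselves spread from 14.8 to 87.7 CPM, and 2 of them, replicates 1 and 2, lay below all WT/YAP S127A hearts. These 2 were also the lowest WT/GFP hearts for *Klf9* and *Sgk1*, the cause of which was not tested. edgeR and DESeq2 on the recovered reads also called 0 of the 9.

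Whether the effect of YAP S127A differed between the genotypes was tested as an interaction. It was called for 4 of the 9 genes, all with a greater fall in KO hearts, beside 3.77% of all genes in that direction. The term uses the KO/GFP libraries again, so a heart that was high for a gene adds to it as well. For *Hif3a*, whose choice for its knockout rise favoured such a value, the term of -3.31 (SE 0.76) is a description. Called with it were *Mt2* (-3.18, SE 0.51, adjusted p = 0.002, limma), *Fkbp5* (-1.90, SE 0.46, adjusted p = 0.022, limma) and *Mt1* (-1.62, SE 0.30, adjusted p = 0.0048, limma). Estimates for the other 5 were also negative but did not pass. *Zbtb16* had the largest of them, -2.24 (adjusted p = 0.15, limma), which passed without KO/GFP replicate 2 (-2.82, adjusted p = 0.043, limma), and *Tsc22d3* the smallest, -0.20 (95% confidence interval -0.78 to 0.38).

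How much the knockout hearts varied among themselves depended on the gene. In KO/GFP hearts the highest replicate was 12.2 times the lowest for *Hif3a*, 6.68 times for *Zbtb16* and 4.72 times for *Fkbp5*, but 1.39 times for *Klf9*, 1.46 for *Mt1* and 1.48 for *Sgk1*. Replicate 4 was the highest of the group for *Hif3a*, *Fkbp5*, *Tsc22d3*, *Klf9*, *Sgk1*, *Mt1* and *Mt2*, and replicate 3 for *Zbtb16* and *Per1*. Relative to the WT/GFP mean, *Hif3a* was 40.4 times higher in replicate 4 and 3.30 times in replicate 3, and *Fkbp5* 8.03 and 3.85 times. Among uninjected KO hearts replicates 2 and 3 had the highest *Hif3a*, *Fkbp5*, *Klf9* and *Mt2*, while replicate 1 had the highest *Tsc22d3*, *Mt1* and *Per1* and the lowest *Zbtb16*. So the hearts did not keep one order across the list. Over the 16 injected libraries, which include the group difference, the 36 pairs of members had Pearson correlations of log2(CPM + 1) from 0.234 to 0.967 with a median of 0.741.

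**Figure D3:**
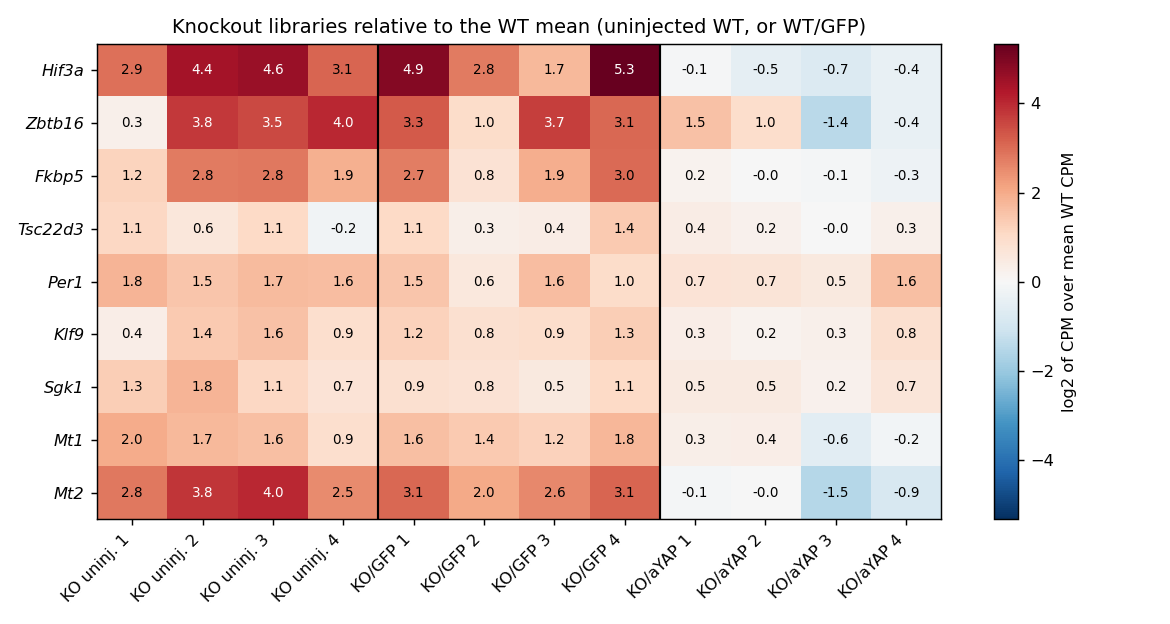
Log2 of CPM over the mean of the matching WT group for each of the 12 knockout libraries (columns) and 9 genes (rows), with uninjected KO set against uninjected WT, and KO/GFP and KO/YAP S127A (aYAP) against WT/GFP. Red is higher and blue lower than that mean. Most cells of the uninjected and GFP columns are red, with *Hif3a* darkest in 6 of these 8 columns and *Zbtb16* in uninjected replicate 4 and GFP replicate 3, and the YAP S127A columns are close to white for most genes.

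Between genes, levels were set side by side per kilobase of exon. In WT/GFP hearts the order of mean CPM per kb was *Mt1* (41.9 ± 8.79, SD, n = 4), *Tsc22d3* (15.3 ± 1.49), *Sgk1* (14.7 ± 2.74), *Mt2* (10.6 ± 5.08), *Klf9* (9.39 ± 2.55), *Per1* (7.96 ± 6.11), *Zbtb16* (1.95 ± 1.13), *Fkbp5* (1.57 ± 0.320) and *Hif3a* (0.267 ± 0.108). *Mt1* at the top and *Hif3a* at the bottom stood clear, and every other pair of neighbours in that order differed by less than the larger of their SDs. In KO/GFP hearts *Mt1* (119 ± 19.9) and *Mt2* (71.4 ± 23.0) led, and *Hif3a* (5.34 ± 4.76) was still the lowest, with *Fkbp5* (7.93 ± 4.44) next and within its SD. *Zbtb16* (16 ± 8.99) and *Per1* (18.6 ± 5.94) came above these, also within their SDs of each other. In CPM without the length, the 4 largest log2 fold changes belonged to the 4 genes with the lowest means in WT/GFP hearts, *Hif3a* (1.79 ± 0.723), *Mt2* (6.22 ± 2.99), *Zbtb16* (10.3 ± 5.97) and *Fkbp5* (14.9 ± 3.03).

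Of 41 other genes that glucocorticoids induce, 37 were tested in injected hearts. In KO/GFP against WT/GFP hearts 16 were called higher and 0 lower, beside 6.43% and 7.22% of all genes, with a median log2 fold change of 0.68. The 5 with the largest changes and no overlap were *Fam107a*, an actin-associated stress gene (2.09, SE 0.29, adjusted p = 2.9e-04, limma), the Krüppel-like factor gene *Klf15* (2.06, SE 0.30, adjusted p = 4.3e-04, limma), the arrestin-domain gene *Arrdc2* (1.96, SE 0.28, adjusted p = 3.6e-04, limma), the kinase gene *Map3k6* (1.63, SE 0.27, adjusted p = 0.0012, limma) and the transcription factor gene *Cebpd* (1.57, SE 0.23, adjusted p = 4.8e-04, limma). *Klf15*, a regulator of cardiac metabolism, had 7.35, 4.57, 12.9 and 9.09 CPM in WT/GFP and 44.9, 18.6, 36.5 and 57.0 CPM in KO/GFP hearts, and 12.9, 9.70, 10.3 and 18.5 CPM with YAP S127A in the knockout. *Arrdc2* was at 4.84, 3.63, 4.78 and 4.16, then 25.5, 11.2, 16.2 and 32.1, then 4.28, 6.08, 4.98 and 8.69 CPM in the same groups. As these 5 were picked for high values in the KO/GFP libraries, which the next comparison shares, the choice favours a fall there. All 5 were called lower with YAP S127A in the knockout, beside 6.92% of all genes, with log2 fold changes of -1.72 (*Fam107a*), -1.47 (*Klf15*), -1.60 (*Arrdc2*), -1.44 (*Map3k6*) and -1.45 (*Cebpd*) and adjusted p at or below 0.004 in limma.

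Across those 37 genes, 18 were called lower and 1 higher in KO/YAP S127A against KO/GFP hearts, beside 6.92% and 7.85% of all genes, with a median of -0.50. The interaction was called for 8, all lower, beside 3.77% of all genes. The one called higher was *Nedd9*, a focal adhesion scaffold (0.83, SE 0.25, adjusted p = 0.036, limma), which was not called in the knockout comparison (-0.18). Groups also did not overlap for *Irs2*, an insulin receptor substrate gene (1.61, adjusted p = 0.052, limma), and *Dusp1*, a phosphatase gene (0.90, adjusted p = 0.055, limma), both higher with YAP S127A but not called. Against WT/GFP, limma called 0 of the 37 in KO/YAP S127A hearts, beside 0.0206% of all genes, with 9 at an unadjusted p under 0.05, beside 888 of 14597, and a median of 0.21. In uninjected hearts the median of the list was 0.92, as a description.

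**Figure D4:**
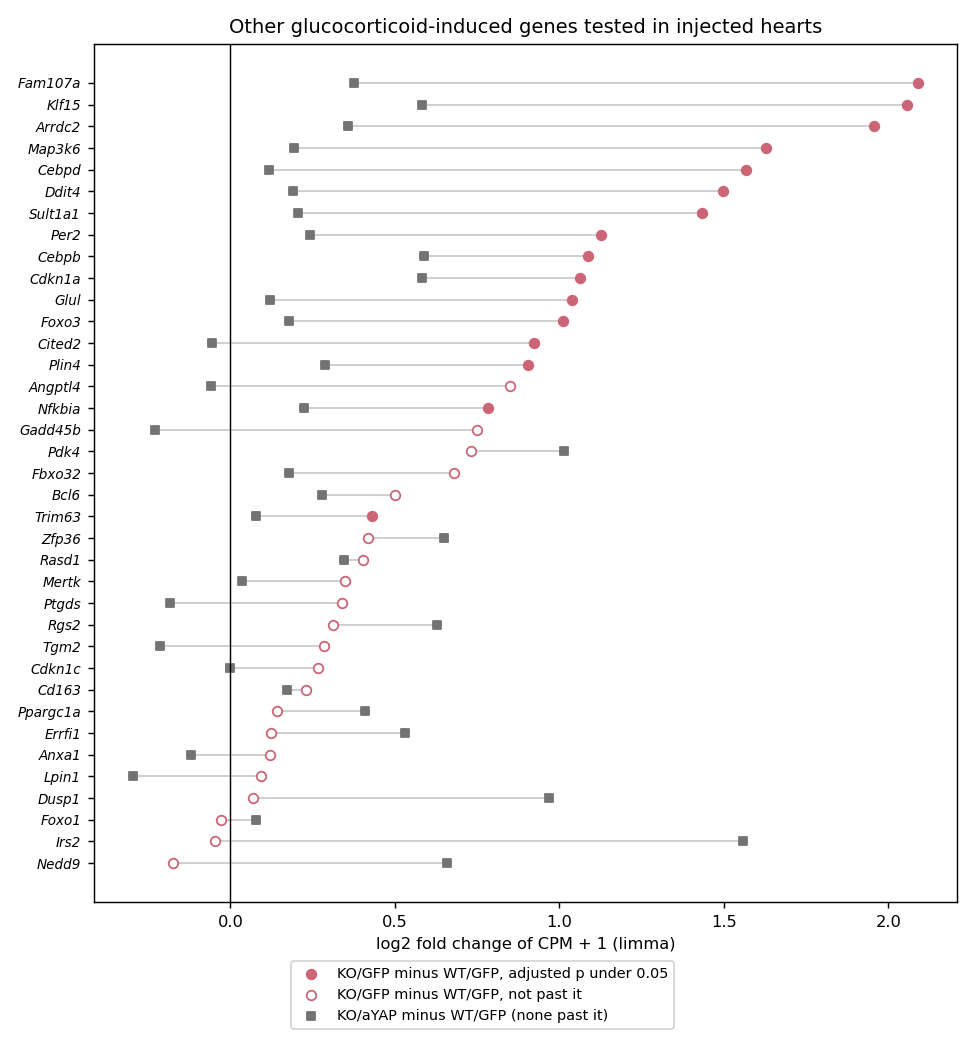
Log2 fold changes of the 37 other glucocorticoid-induced genes tested in injected hearts (limma on log2 of CPM + 1). Circles show KO/GFP minus WT/GFP, filled where the adjusted p was under 0.05 (16 genes), and grey squares show KO/YAP S127A (aYAP) minus WT/GFP, where limma called 0. The top of the plot holds *Fam107a*, *Klf15*, *Arrdc2*, *Map3k6* and *Cebpd*, and their squares lie closer to 0 than their circles.

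None of the tested genes of the receptor and of the proteins that handle it or its ligand was called higher in KO/GFP hearts. *Nr3c1*, the glucocorticoid receptor gene, had 95.1, 109, 102 and 89.9 CPM in WT/GFP and 79.6, 72.0, 89.8 and 77.9 CPM in KO/GFP hearts. All 4 knockout values were below the WT/GFP values, and the log2 fold change of -0.31 (SE 0.10, adjusted p = 0.050, limma) did not pass the threshold. In KO/YAP S127A hearts *Nr3c1* was at 118, 87.7, 110.3 and 114 CPM and was called higher than in KO/GFP hearts (0.42, SE 0.10, adjusted p = 0.01, limma), although 1 heart overlapped. *Nr3c2*, the mineralocorticoid receptor gene, which also binds corticosterone, was at 4.50 to 15.3 CPM in all libraries and was not called in the knockout comparison (-0.43, SE 0.28). Of the 14 genes listed, 11 were tested, and 0 were called higher and 2 lower, beside 6.43% and 7.22% of all genes, the drug efflux pump gene *Abcb1a* (-0.52, adjusted p = 0.049, limma) and the chaperone adaptor gene *Stip1* (-0.39, adjusted p = 0.013, limma). With YAP S127A 2 were called higher, *Nr3c1* and *Abcb1a*, beside 7.85% of all genes. The interaction was called for 0, with 6 at an unadjusted p under 0.05, beside 1104 and 3455 of the 14597 genes.

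*Hsd11b1* encodes the enzyme that regenerates active glucocorticoid inside cells, and its level was low. It had 0.657, 0.112, 0.381 and 0.164 CPM in WT/GFP, 10.4, 1.70, 3.69 and 11.3 CPM in KO/GFP and 0.677, 0, 0.515 and 0.801 CPM in KO/YAP S127A hearts. All 4 KO/GFP hearts were above both other groups, but the gene did not reach 1 CPM in enough injected libraries to be tested there. Uninjected KO hearts were at 2.57, 3.23, 8.69 and 1.32 CPM and WT hearts at 0.109, 0.278, 0.414 and 0.371 CPM. *Hsd11b2*, whose enzyme inactivates the hormone, and *Serpina6*, the gene of its plasma carrier, were not listed in either table.

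Of 10 inflammatory genes that glucocorticoids repress, 4 passed the filter in injected hearts. *Mmp9*, at 1.82 to 3.69 CPM in KO/GFP hearts and 0.113 to 1.49 CPM in the others, passed it only through the KO/GFP libraries, so it had to differ and is left out of the counts. The other 3 were called higher in KO/GFP hearts, beside 6.43% of all genes. They were the chemokine gene *Ccl2* (1.76, SE 0.25, adjusted p = 3.6e-04, limma), the adhesion molecule gene *Icam1* (1.15, SE 0.17, adjusted p = 5.6e-04, limma) and the adhesion molecule gene *Vcam1* (0.46, SE 0.13, adjusted p = 0.027, limma). *Ccl2* had 3.11, 1.06, 2.66 and 1.70 CPM in WT/GFP, 12.2, 5.56, 11.8 and 9.03 CPM in KO/GFP and 1.35, 3.04, 2.92 and 1.89 CPM in KO/YAP S127A hearts. *Icam1* was at 23.8, 16.4, 14.1 and 13.1, then 38.8, 32.3, 44.1 and 36.9, then 15.7, 15.3, 12.8 and 13.8 CPM in the same groups. These 3 were called lower with YAP S127A in the knockout, beside 6.92% of all genes, and the interaction was called lower for them, beside 3.77%. The genes *Il6*, *Il1b*, *Tnf*, *Ccl7*, *Ptgs2* and *Cxcl10* were not tested, since they were not listed or were below the filter. Markers of neutrophils, which make *Mmp9*, a protease gene, moved with this group. The neutrophil markers listed, 4 of 5 (*S100a8*, *S100a9*, *Ngp* and *Retnlg*, without *Camp*), summed to 29.4 to 48.5 CPM in KO/GFP, 5.93 to 10.7 in WT/GFP and 3.04 to 12.6 in KO/YAP S127A hearts, and their part in these results was not tested.

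*Per1* is also a clock gene, so 16 other clock genes were read beside it. In KO/GFP hearts 3 were called higher and 0 lower, beside 6.43% and 7.22% of all genes, with a median log2 fold change of 0.18. These were the clock repressor *Per2* (1.13, SE 0.18, adjusted p = 8.8e-04, limma), the PAR-domain factor *Tef* (0.75, SE 0.17, adjusted p = 0.0065, limma) and the nuclear receptor *Nr1d1* (0.56, SE 0.13, adjusted p = 0.01, limma). *Per2*, which is also counted among the induced genes above, had 17.6, 13.8, 15.7 and 16.6 CPM in WT/GFP, 39.5, 24.6, 45.9 and 36.6 CPM in KO/GFP and 20.7, 21.9, 15.9 and 17.8 CPM in KO/YAP S127A hearts, so it lacked the wide WT/GFP spread of *Per1*. It was called lower with YAP S127A (-0.88, SE 0.18, adjusted p = 0.004, limma), as were *Tef* and *Nr1d1*, making 3 of 16 beside 6.92% of all genes. As these 3 were picked for high values in the KO/GFP libraries, which this comparison shares, the choice favours a fall. *Arntl*, the activator of the clock, was at 8.43, 8.09, 8.10 and 11.3 CPM in WT/GFP and 18.1, 9.35, 6.32 and 22.6 CPM in KO/GFP hearts, and *Dbp*, one of its targets, at 36.0, 32.6, 33.0 and 24.7 and 32.2, 34.9, 53.0 and 16.8 CPM. Neither was called. The time of day at which hearts were collected was not given in the labels or methods used here.

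**Figure D5:**
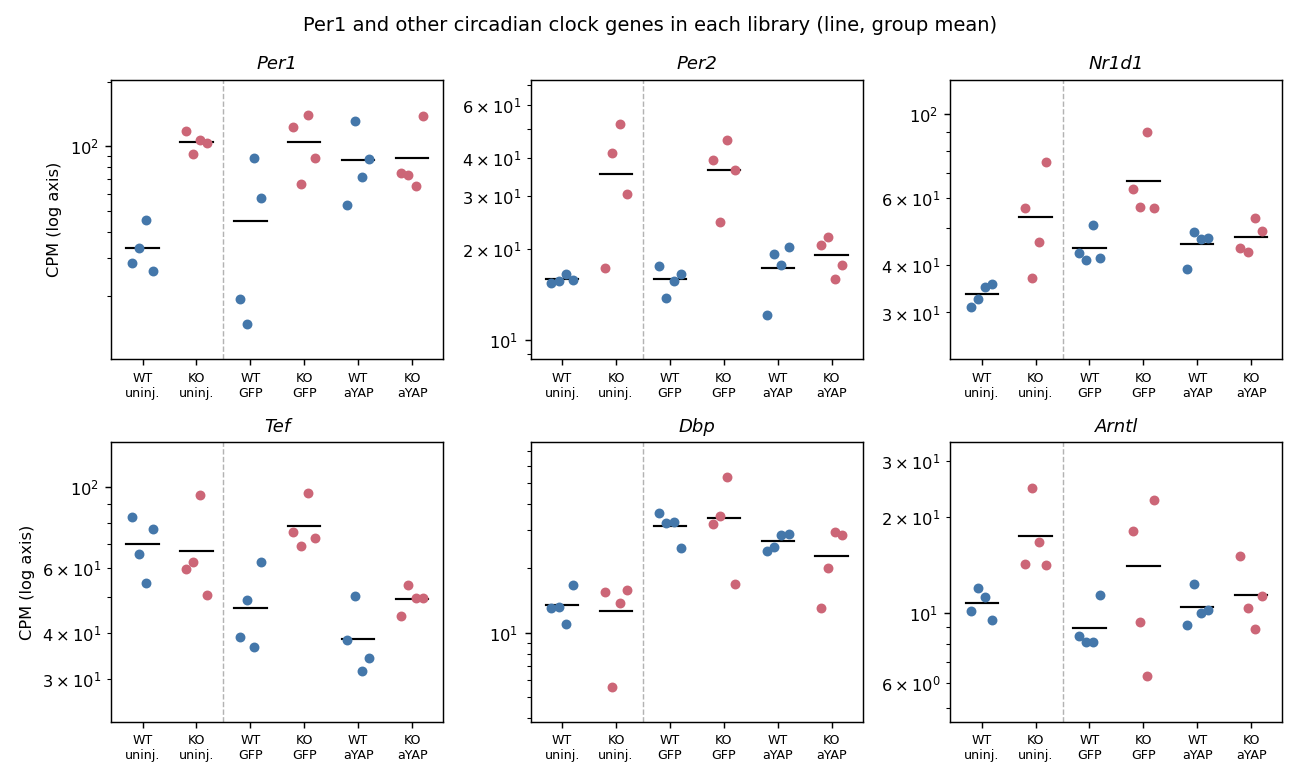
CPM of *Per1* and 5 other clock genes in every library on a log axis, with 1 point per heart, blue for WT and red for KO, a line at each group mean, and a dashed line between the separately normalized tables (aYAP, YAP S127A). *Per2* is higher in KO/GFP than in all other injected groups, the means of *Per1* in both YAP S127A groups are near that of KO/GFP, and *Dbp* and *Arntl* overlap between WT/GFP and KO/GFP.

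*Hif3a* shares its family with the oxygen-regulated transcription factors HIF1α and HIF2α, and 13 genes of that family and of the hypoxia response were tested. *Hif1a* and *Epas1*, which encode these, were not called in KO/GFP hearts (-0.02, 95% confidence interval -0.25 to 0.22, and -0.15, -0.37 to 0.06). These are RNA levels, and the proteins were not measured. Of the 13, 3 were called higher and 0 lower, beside 6.43% and 7.22% of all genes, with a median of 0.07, and only *Bnip3*, a mitophagy gene, had groups that did not overlap, as 7.32% of all genes did in that direction. It had 63.8, 67.5, 63.2 and 63.9 CPM in WT/GFP, 153, 91.7, 119.8 and 168 CPM in KO/GFP and 60.9, 69.3, 56.0 and 67.9 CPM in KO/YAP S127A hearts (log2 fold changes 0.99, adjusted p = 4.3e-04, and -1.02, adjusted p = 3.2e-04, limma). As *Bnip3* was picked for its rise in the KO/GFP libraries, the choice favours the fall. Beside the 2 metallothionein genes, a list of 6 held the other metallothioneins *Mt3* and *Mt4* and the metal-related genes *Mtf1*, *Slc30a1*, *Slc39a10* and *Slc39a14*. It was not limited to genes that metals induce. Of the 6, 5 were tested and limma called 0, with 1 at an unadjusted p under 0.05, beside 4000 of the 14597 genes. The zinc importer gene *Slc39a14* had 0.35 (adjusted p = 0.078, limma) and *Mtf1*, the gene of the metal-responsive transcription factor, 0.16 (adjusted p = 0.41, limma). Calls of these lists were made with limma alone.

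The genes whose log2(CPM + 1) followed a member most closely over the 16 injected libraries were read off by Pearson correlation, as a description. The 16 points share 4 groups and 1 normalization. For *Hif3a* they were *Plvap* (0.963), *Pparg* (0.959) and *Las1l* (0.958), and for *Fkbp5* they were *Cyp1b1* (0.977), *Fbxo31* (0.969) and *Cp* (0.966). For *Tsc22d3* they were *Corin* (0.936), *Aqp4* (0.935) and *Plin5* (0.934). *Mt2* was closest to *Mt1* (0.967), followed by *Syn3* (0.965) and *Tnrc6a* (0.958).

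Markers of the cells that the tissue can hold also differed between groups, where 6.43% of all genes were called higher and 7.22% lower in KO/GFP hearts. Cardiomyocyte markers summed to 46752 to 52567 CPM in KO/GFP and 36936 to 46849 CPM in WT/GFP hearts, with 2 of 6 called higher. The 5 macrophage markers summed to 19.7 to 33.5 CPM against 52.4 to 81.3 CPM, with 4 of 4 tested called lower, and to 54.0 to 69.8 CPM in KO/YAP S127A hearts. Fibroblast markers summed to 809 to 1028 CPM against 1272 to 1494 CPM, with 3 of 5 called lower, endothelial markers to 1033 to 1114 CPM against 1188 to 1333 CPM, with 2 of 4 called lower, and smooth muscle markers to 399 to 638 CPM against 559 to 924 CPM, with 1 of 4 called lower. With YAP S127A in KO hearts, 4 of 4 macrophage, 3 of 5 fibroblast, 2 of 4 endothelial and 2 of 4 smooth muscle markers tested were called higher. Of the cardiomyocyte markers 2 of 6 were called lower, where 7.85% of all genes were called higher and 6.92% lower. Smooth muscle markers summed to 883 to 1335 CPM in KO/YAP S127A hearts. In uninjected KO hearts neutrophil markers summed to 46.7 to 104 CPM against 3.73 to 9.82 CPM in WT. The adipocyte markers *Adipoq*, *Lep*, *Plin1* and *Cfd* were not listed in either table. The part of these markers in the values of the 9 genes was not tested.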

How the data were processed

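RNA of 24 hearts was read as 50 bp single-end (8 uninjected) and 150 bp paired-end (16 injected) strand-specific, polyA-selected libraries. Per the labels and methods, the authors trimmed reads with Cutadapt 2.3, checked them with FastQC, aligned them to GRCm38 with HISAT2 2.1.0, assembled transcripts with StringTie 1.3.4, derived gene counts from transcript coverage and computed CPM with edgeR 3.26.1. The deposited values are a normalized signal, CPM on scaled library sizes, whose columns sum to between 942566 and 1134439, each table scaled separately. All nonzero values were whole multiples of 1 read within 0.1 read (100%), and these recovered reads, with a median of 22619060 in uninjected and 16970390 in injected libraries, are read equivalents.

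Symbols and positions came from GENCODE M21 (15655 of 15667 and 15314 of 15327 identifiers matched). Genes above 1 CPM in at least 4 uninjected or 8 injected libraries were tested, 15598 and 14597. Groups were compared with limma 3.58.1 on log2(CPM + 1), which understates changes of low genes, with the variance trended on mean expression and p-values adjusted by Benjamini-Hochberg over all genes tested. Genes are called where the adjusted p is under 0.05. The methods of the study name Fisher's exact test. One fit held all 16 injected libraries. The uninjected contrast was fitted as a description. No test crosses the tables. The smallest mean chi-square per gene between 2 replicates was 12.1, where sampling noise gives 1, so no library was counted as a duplicate.

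The members and lists were chosen with earlier results of these data known. Named are all members, *Nr3c1*, *Nr3c2* and *Hsd11b1*, up to 5 genes per list with the largest changes among those called in KO/GFP against WT/GFP with groups that do not overlap (2 by size where there are none), the 3 nearest genes by correlation of 4 members, and markers, with *Arntl*, *Dbp*, *Hif1a*, *Epas1*, *Nedd9*, *Irs2* and *Dusp1* added after their values were seen. Alternatives were median-ratio and quantile scaling, a pseudocount of 0.1, no filter, a filter at 5 CPM, limma with no trend, the recovered reads tested in edgeR 4.0.16 or in DESeq2 1.42.0, a sex-linked covariate, a replicate block and leaving out each library. The code was tested on simulated data. R 4.3.3, Python 3.11.15 and matplotlib 3.10.9 were used.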

Additional observations from a re-analysis of the deposited data

Results flagged for a closer look

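The effect of YAP S127A differed between KO and WT hearts for 4 of the 9 genes by the interaction term of limma. This term uses the KO/GFP libraries again, so it is not separate from the knockout difference. The choice of *Hif3a* for its knockout rise favoured its value. The log2 differences of the effects were -3.31 for *Hif3a*, -3.18 for *Mt2*, -1.90 for *Fkbp5* and -1.62 for *Mt1*. In KO hearts the effects themselves were -3.38, -3.02, -2.09 and -1.48, and in WT hearts -0.08, 0.16, -0.19 and 0.14.

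*Per1* in KO/YAP S127A replicate 4, at 138 CPM, lay far from the other 3 hearts of its group at 65.2 to 75.1 CPM. It was the single value set apart among 54 groups of 4 hearts, where about 2.70 would be by chance. Without this heart the difference from KO/GFP was -0.49 on the log2 scale (adjusted p = 0.53, limma), against -0.26 with it.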

How the results depend on the processing

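Under each scaling, pseudocount, filter, covariate and test tried, the number of the 9 genes called stayed within 1.5 times that of limma. It ran from 8 to 9 in KO/GFP against WT/GFP, from 5 to 7 with YAP S127A in the knockout and from 3 to 5 for the interaction, and it was 0 in the other comparisons of injected hearts. A filter at 5 CPM removes *Hif3a* from the injected fit. Leaving out 1 library at a time gave 7 to 9 in KO/GFP against WT/GFP, 4 to 8 with YAP S127A in the knockout, 4 to 5 for the interaction and 6 to 8 in uninjected hearts. The one sign that turned was the interaction of *Tsc22d3*, -0.20 with all libraries and between -0.36 and 0.0019 with 1 left out, the last without KO/GFP replicate 4, none past the threshold. Calls of *Per1*, *Tsc22d3*, *Klf9* and *Zbtb16* that hang on single hearts or on the test are given above. In limma the interaction of *Zbtb16* was -1.64 with the sex-linked covariate. In addition the interaction passed for *Sgk1* with DESeq2 (adjusted p = 0.032), without KO/GFP replicate 3 (0.025) and without WT/GFP replicate 3 (0.027), and for *Zbtb16* without KO/GFP replicate 2 (0.043), the cause of which was not tested. In the description of uninjected hearts *Zbtb16* also dropped below the threshold under a 5 CPM filter, the sex-linked covariate and the replicate block.

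Replicate numbers did not pair the injected hearts, as hearts with the same number had correlated deviations from their group means of -0.17 to 0.14 over 24 pairs. With the number as a replicate block, 9, 6 and 4 genes were called in the 3 comparisons named first and 7 in uninjected hearts.

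With 4 hearts per group and wide spread among knockout hearts, differences smaller than the intervals given above were not resolved. Depth was 15015038 reads or more per library, and *Hsd11b1*, below 1 CPM in WT/GFP and KO/YAP S127A hearts, was too low to be tested in injected hearts.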
